A study of Mus musculus with 4 samples.

Results

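The cells described here are leukocytes of transplanted mouse lungs that carry the transcripts of conventional type 2 dendritic cells (cDC2). They were chosen by a rule on raw unique molecular identifiers (UMIs, each standing for 1 captured transcript) in single cells. A cell needed at least 3 UMIs of Ccl17, Ccl22, Mgl2 and Cd209a together and at least 20 UMIs of H2-Aa. It could carry fewer than 5 UMIs of the complement genes C1qa, C1qb and C1qc, at most 2 of Ace, Adgre4 and Cd300e, and fewer than 4 of Marco, Krt79, Plet1, Atp6v0d2 and Ctsk. Cells with any UMI of Cd3e or Cd79a were left out. The rule found 209 of 24291 kept cells. Of these, 105 lay in the library of donor leukocytes after vehicle, 74 in the library of donor leukocytes after resolvin D1, 7 in the vehicle recipient library and 23 in the resolvin D1 recipient library.

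The left lungs of B6 mice were transplanted into syngeneic recipients, so graft and host share a genetic background, and were collected 2 h later. Recipients had received 200 ng of resolvin D1 (RvD1), which cells form from an omega-3 fatty acid, in 200 µL of 1% ethanol, or the vehicle, intravenously just before the operation; the series' design text speaks instead of treated grafts. All grafts had first been kept for 60 min at 4 °C and 45 min at 28 °C. CD45+ cells were separated by donor or recipient origin, and each of the 4 libraries pooled the grafts of 2 mice. Each group is thus a single library without replicates, and no p-value is given. Intervals are exact 95% intervals that cover counting error only: Clopper-Pearson for shares, Poisson for levels and binomial for ratios.

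Dendritic cells take up antigen, carry it to lymph nodes and show it to T cells on MHC molecules. The cDC2 subset is known for presenting antigen to CD4+ T cells on MHC class II and, in the lung, for its part in type 2 immunity. Ccl17 and Ccl22 are secreted chemokines that share the receptor Ccr4, which sits on regulatory and type 2 helper T cells among others. Mgl2 and Cd209a are C-type lectins that bind sugars on antigens, and H2-Aa is the alpha chain of an MHC class II molecule. A dendritic cell that matures switches on Ccr7, the receptor that guides it to the lymph node, and the actin bundler Fscn1.

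The 2 chemokine genes are neighbours, and their upstream sequences are shown because the members divide mainly by these genes. On GRCm38, Ccl22 (ENSMUSG00000031779) lies on chromosome 8 from 94745590 to 94751699 and Ccl17 (ENSMUSG00000031780) from 94810453 to 94812036, both on the plus strand. They are separated by 58753 bases, in which Cx3cl1 lies. The bases come from RefSeq on GRCm38.p6: the 250 before the start of Ccl17 and, for Ccl22, those of the 250 that lie before the earlier GENCODE start, which are 156. Capitals mark matches to TTCNNNNGAA and TTCNNNGAA, the spacings named for STAT6 and for other STAT factors, where N is any base. Both motifs read the same on the 2 strands.
Ccl22 chr8:94745434-94745589: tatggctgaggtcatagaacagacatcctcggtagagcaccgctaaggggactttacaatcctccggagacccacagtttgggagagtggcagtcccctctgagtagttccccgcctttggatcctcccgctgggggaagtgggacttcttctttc
Ccl17 chr8:94810203-94810452: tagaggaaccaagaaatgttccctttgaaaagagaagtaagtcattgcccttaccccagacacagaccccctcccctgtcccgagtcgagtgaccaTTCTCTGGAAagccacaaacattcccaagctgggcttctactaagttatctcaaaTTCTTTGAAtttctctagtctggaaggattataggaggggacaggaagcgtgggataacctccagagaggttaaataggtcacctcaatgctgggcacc
Over the full 250 bases, the Ccl17 window held 1 match to each motif and the Ccl22 window none. Of 32851 RefSeq promoter windows, 1923 (5.85%) held TTCNNNNGAA and 2306 (7.02%) held TTCNNNGAA. A match is a description of letters and not a bound site.

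The other rule genes lie elsewhere. Cd209a (ENSMUSG00000031494) spans 3743397 to 3748984 on the minus strand of chromosome 8. Mgl2 (ENSMUSG00000040950) spans 70130329 to 70137550 on the plus strand of chromosome 11, and H2-Aa (ENSMUSG00000036594) spans 34282744 to 34287823 on the minus strand of chromosome 17.

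The libraries kept 5658 and 5092 donor cells and 5918 and 7623 recipient cells, vehicle before RvD1. Median depths, in that order, were 8073, 6517, 5860 and 5479 UMIs per cell. Members were deeper than the average cell, with medians of 17794, 15094.5, 15034 and 13920 UMIs and 3298, 3071.5, 3447 and 2945 genes. The shallowest member had 2764 UMIs. Their median mitochondrial share lay between 2.27% and 2.70%. No member was called a doublet, and no cell barcode of a member occurred in a second library.

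By share of kept cells, cDC2 were scarce in all libraries and scarcest among recipient leukocytes. They made up 1.86% (1.52 to 2.24%) of vehicle donor cells and 1.45% (1.14 to 1.82%) of RvD1 donor cells, and these intervals overlap. They made up 0.118% (0.0476 to 0.244%) of vehicle recipient cells and 0.302% (0.191 to 0.452%) of RvD1 recipient cells. Both donor shares lie above both recipient shares with no overlap of intervals. The donor libraries were also the deeper ones, and a rule on raw UMIs keeps fewer shallow cells. With every cell thinned to 2000 UMIs before the rule, the shares were 0.845%, 0.959%, 0% and 0.0271% in the same order.

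At the lower limits of the rule, in the donor libraries, 11 and 6 members had exactly 3 UMIs of the 4 genes, and 12 and 4 cells that met the other conditions had 2. Of H2-Aa, 2 and 4 members had 20 to 24 UMIs, while 4 and 1 cells with 15 to 19 fell outside. Other cells failed by a single limit on the genes of other cell types. The limit on macrophage genes alone left out 36 and 21 cells, that on C1q genes 23 and 16, and that on Cd3e 18 and 1, in the vehicle and RvD1 donor libraries.

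The levels of the rule genes are a description, since they chose the cells. Ccl17 stood at 4770 CPM (the gene's UMIs scaled to a fixed total, so that levels compare between libraries) in vehicle donor members and 4702 in RvD1 donor members, against 18.5 and 6.23 in vehicle and RvD1 recipient members. Ccl22 stood at 2030, 1388, 64.7 and 31.1 CPM in that order. Both chemokines were thus abundant in donor members and nearly absent in recipient members, where no cell had more than 1 Ccl17 UMI. Mgl2 stood at 401, 460, 0 and 46.7 CPM. Cd209a stood at 368 and 307 CPM in the donor libraries and at 333 and 822 in the vehicle and RvD1 recipient libraries. Only the RvD1 recipient level thus lay above both donor levels. H2-Aa was high in all of them, at 8186, 8750, 5660 and 6337 CPM.

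Genes that the rule did not use bear on the label. Zbtb46, a transcription factor of conventional dendritic cells, stood at 186 and 138 CPM in vehicle and RvD1 donor members. That is near the 208 and 174 CPM of type 1 dendritic cells (cDC1) and far above the 3.03 and 1.28 CPM of classical monocytes. The cDC1 were 34 and 17 cells outside the rule with at least 2 UMIs of Xcr1 and Clec9a and 20 of H2-Aa. The other comparison groups were also taken from cells outside the rule. Flt3, the growth factor receptor of dendritic cells, stood at 110 and 120 CPM in members, 213 and 201 in cDC1, and 12.4 and 7.91 in macrophages with C1q transcripts. Irf4, a transcription factor of cDC2, stood at 64.0 and 56.6 CPM, and the lectin Clec10a at 119 and 144 CPM. The 12 cDC2 markers outside the rule summed to 1677 and 1410 CPM in vehicle and RvD1 donor members and 980 and 1489 in recipient members. Their sum did not set members apart: it was 1781 and 1391 CPM in donor cDC1, 1504 and 1233 in nonclassical monocytes, 1392 and 1188 in classical monocytes, and 1317 and 1107 in C1q-positive macrophages. Some members also reached the cDC1 sum of 2 UMIs of Xcr1 and Clec9a, which goes against their label. They were 13 of 105 vehicle donor, 13 of 74 RvD1 donor, 3 of 7 vehicle recipient and 2 of 23 RvD1 recipient members, against 3 of 456 and 1 of 277 donor B cells. Markers of basophils and mast cells were all at 0 in donor members. T cell markers outside the rule summed to 15 and 24.3 CPM in donor members and 139 and 21.8 in recipient members. The donor comparison groups lay lower, from 0 and 3.04 CPM in cDC1 to 6.78 and 6.42 in nonclassical monocytes. The rule and these groups leave out cells with Cd3e, so low sums are partly selected.

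The chemokines also occurred in cells outside the rule. In cDC1 of the donor libraries Ccl17 reached 3360 CPM after vehicle and 3230 after RvD1, and in C1q-positive macrophages 2080 and 1032. In classical monocytes it stood at 2.48 and 0.569 CPM. These levels depend on the rule, since the comparison groups hold only cells outside it. A cDC1 with at least 3 UMIs of the 4 rule genes counts here only if it failed a limit on the genes of other cell types. A classical monocyte with as many counts only if it had under 20 UMIs of H2-Aa. Of the C1q-positive macrophages, 13 and 10 had at least 10 chemokine UMIs and missed the rule by C1q alone. Members held 43.4% of all Ccl17 UMIs in the vehicle donor library and 47.2% in the RvD1 donor library, and 46.0% and 52.1% of the Ccl22 UMIs. The cDC1 held 13.1% and 9.57% of Ccl17. As a measure of free RNA, 3.29% and 1.44% of donor B cells carried a Ccl17 UMI, at median depths of 6825 and 6775.

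Within the members, Ccl17 and Ccl22 ranged from absent to abundant, with few donor cells near 10 UMIs. Cells with a sum of at least 10 UMIs of the 2 genes are called chemokine-high below. They were 60 of 105 members in the vehicle donor library (57.1%, 47.1 to 66.8%) and 41 of 74 in the RvD1 donor library (55.4%, 43.4 to 67.0%). In the vehicle and RvD1 recipient libraries they were 0 of 7 and 0 of 23, with exact upper limits of 41.0% and 14.8%. The donor shares differed by less than their counting intervals. Of vehicle donor members, 27 had no UMI of either gene, 16 had 1 to 4, 2 had 5 to 9 and 4 had 10 to 19. A further 11 had at least 20 but under 100, and 45 had at least 100. Of RvD1 donor members, 23 had none, 7 had 1 to 4, 3 had 5 to 9 and 5 had 10 to 19. A further 14 had at least 20 but under 100, and 22 had at least 100. With members thinned to 5000 UMIs per cell, the donor shares were 50.5% and 50.7%.

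**Figure D1:**
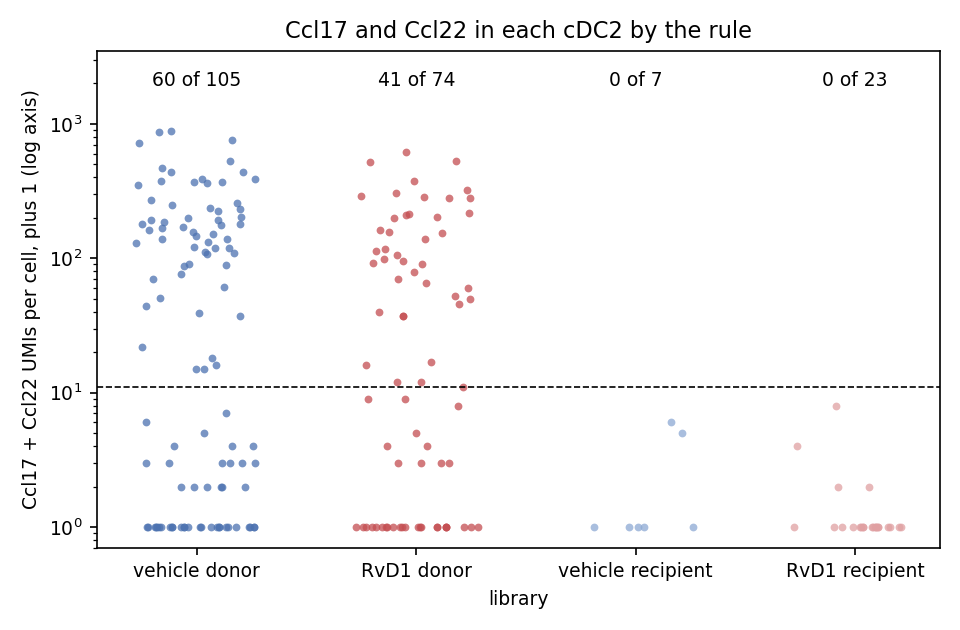
UMIs of Ccl17 and Ccl22 plus 1 in each member cell (log axis), by library, with 1 point per cell and the dashed line at the limit of 10 UMIs. The donor libraries hold cells on both sides, 60 of 105 and 41 of 74 above the line, and all 30 recipient members lie below it.

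In chemokine-high cells the median was 128 Ccl17 UMIs after vehicle and 88 after RvD1, with maxima of 548 and 565. The median of Ccl22 was 37.5 and 15 UMIs, with maxima of 637 and 254. Ccl17 outnumbered Ccl22 in 54 of 60 and 35 of 41 of these cells, and 59 and 34 of them carried both. Of these 2 chemokines, Ccl17 was therefore the more abundant in most chemokine-high cells.

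By share of cells, Mgl2 was more frequent on the chemokine-high side of the split and Cd209a on the other side. Mgl2 was detected in 68.3% and 65.9% of chemokine-high cells and in 24.4% and 42.4% of the other members, in the vehicle and RvD1 donor libraries. Cd209a was detected in 50% and 39.0% of chemokine-high cells and in 95.6% and 81.8% of the others. A cell with few chemokine UMIs could enter by the rule only through a lectin or a few chemokine UMIs, so part of this contrast comes from the rule. The 2 lectins did not exclude each other. Of chemokine-high cells with at least 2 Cd209a UMIs, 26 of 29 and 12 of 12 also had at least 2 of Mgl2. Without cells bearing cDC1 or maturation markers, the vehicle donor log2 ratio of Cd209a, chemokine-high over others, reversed to 0.63. Clec10a, which the rule did not use, had at least 2 UMIs in 13 of 60 and 4 of 41 chemokine-high cells and in 23 of 45 and 16 of 33 others. Its level was 64.9 against 201 CPM after vehicle and 44.7 against 283 CPM after RvD1.

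**Figure D2:**
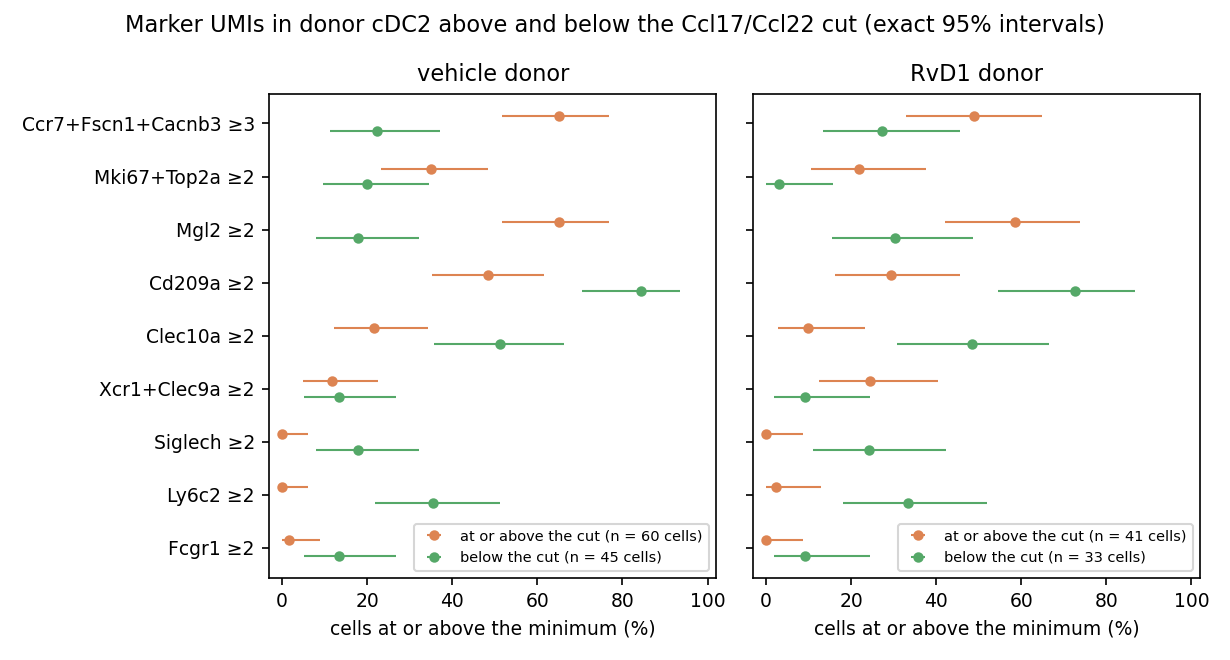
Share of donor members (%) that reach the minimum UMIs of each marker or marker sum, for cells at or above and below the limit of 10 Ccl17 and Ccl22 UMIs, with exact 95% intervals. Maturation and cycling markers stand higher above the limit, but only maturation after vehicle has intervals that do not overlap. Cd209a, Clec10a, Siglech and Ly6c2 stand higher below the limit.

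Maturation genes were more frequent in chemokine-high cells, though with overlapping intervals after RvD1. At least 3 UMIs of Ccr7, Fscn1 and Cacnb3 together were found in 39 of 60 chemokine-high cells (65%, 51.6 to 76.9%) and 10 of 45 others (22.2%, 11.2 to 37.1%) after vehicle. After RvD1 they were found in 20 of 41 (48.8%, 32.9 to 64.9%) and 9 of 33 (27.3%, 13.3 to 45.5%). None of 225 and 432 classical monocytes reached that sum, but 191 of 456 (41.9%) and 94 of 277 (33.9%) donor B cells did, at lower depth, so the sum is not specific to dendritic cells. Ccr7 stood at 1503 against 251 CPM in the vehicle donor library and 881 against 511 CPM in the RvD1 donor library. The proliferation genes Mki67 and Top2a had at least 2 UMIs in 21 of 60 and 9 of 41 chemokine-high cells, against 9 of 45 and 1 of 33 others. The intervals of these shares overlap in both libraries. Cycling and maturation markers occurred together: 20 of the 39 mature chemokine-high cells after vehicle and 7 of the 20 after RvD1 reached both sums.

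Some members below the limit of 10 chemokine UMIs carried the genes of other cells, which goes against their label. At least 2 UMIs of Siglech, a lectin of plasmacytoid dendritic cells, were found in 8 of 45 such cells after vehicle and 8 of 33 after RvD1, and in 0 of 60 and 0 of 41 chemokine-high cells. At least 2 UMIs of the monocyte gene Ly6c2 were found in 16 of 45 and 11 of 33, against 0 of 60 and 1 of 41. All 8 Siglech-bearing cells of each library also carried Ly6c2, and 6 and 8 of them carried Cd209a. Ly6c2 and Ly6c1 are near-identical, so their reads may be shared. Neither gene reached 2 UMIs in 29 and 22 members below the limit. These cells are therefore called members below the limit and not by a cell type.

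To compare the sides of the split, UMIs were summed over cells within each donor library and expressed as CPM. A total of 1490 genes had at least 100 UMIs in each donor library. In both libraries, 79 of them (5.3%) were at least 2-fold higher in chemokine-high cells and 82 (5.5%) were at least 2-fold lower. The median over all 1490 genes was -0.15 on the log2 scale after vehicle and -0.12 after RvD1; with each ratio centred on that median, the counts were 103 higher and 64 lower. Since the split was made on the same cells, these ratios describe and test nothing. Ratios below are log2 of chemokine-high over other members, vehicle donor first.

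Genes of uptake and of movement led the higher side after the 2 chemokines. Ly75, the endocytic receptor DEC-205, stood at 360 against 21.3 CPM after vehicle and 290 against 25.9 CPM after RvD1, ratios of 4.08 and 3.48. Timd4, a receptor for phosphatidylserine on dying cells, had ratios of 2.87 and 3.53, and the scavenger receptor Cd36 3.85 and 2.94. Fnbp1l, which bends membranes in endocytosis, had ratios of 2.96 and 3.0. Nr4a3, a nuclear receptor known in migrating dendritic cells, stood at 1370 against 293 and 881 against 168 CPM, ratios of 2.22 and 2.39. AA467197 had ratios of 3.49 and 2.34. Fscn1 had ratios of 7.48 and 2.44, but 1 cell held 26.7% and 29.1% of its UMIs in the 2 libraries. With the limit at 20 in place of 10 chemokine UMIs, the vehicle donor ratios were 1.05 for Fscn1, 1.54 for Ly75 and 1.97 for Fnbp1l.

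**Figure D3:**
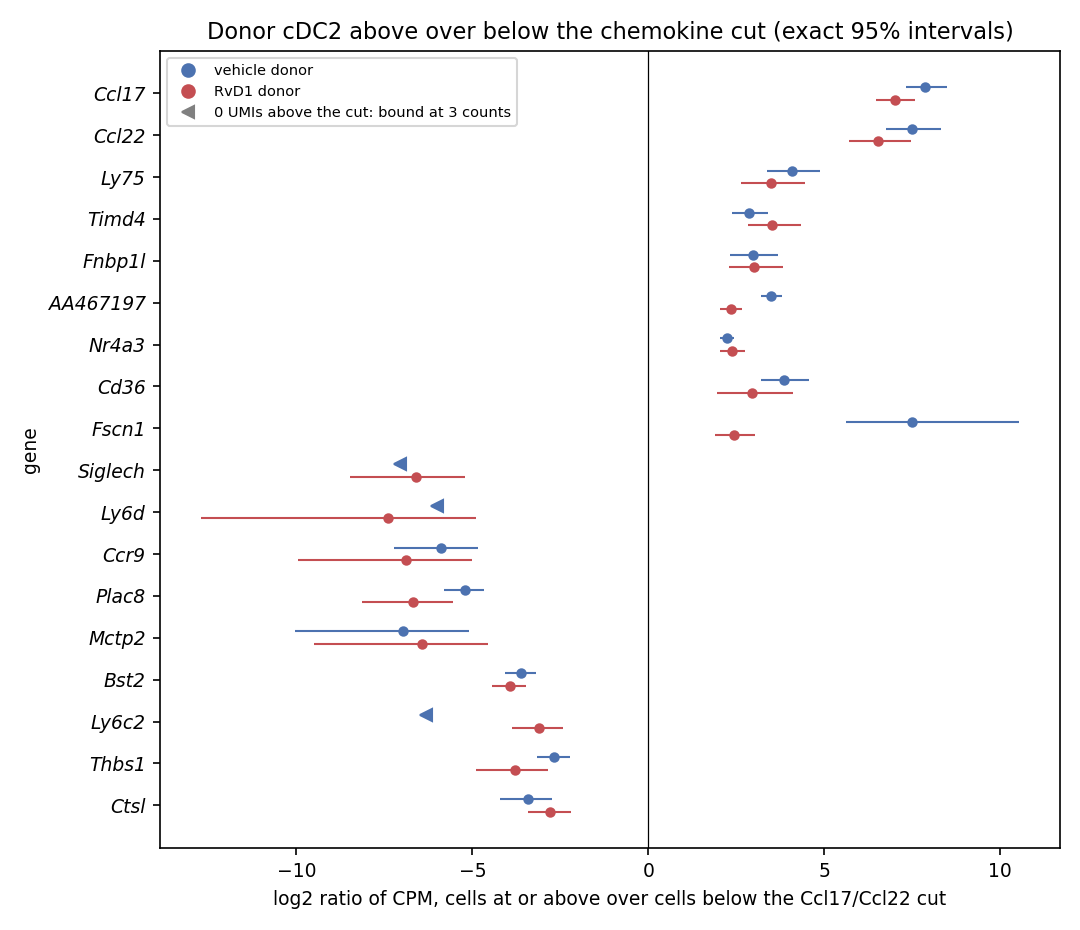
Log2 ratio of CPM, chemokine-high over other members, in the vehicle and RvD1 donor libraries for 9 higher and 9 lower named genes, with exact binomial 95% intervals; triangles are bounds where 1 side had no UMI. Each gene lies on the same side of 0 in both libraries, and Ccl17 and Ccl22 were used to make the split.

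The lower side was led by plasmacytoid and monocyte genes. Siglech had no UMI in chemokine-high cells after vehicle against 330 CPM in the others (at least 132-fold lower), and 6.16 against 596 CPM after RvD1. Ly6d, a surface protein of lymphoid and plasmacytoid precursors, was at least 64.8-fold lower after vehicle and had a ratio of -7.39 after RvD1. Ccr9, a homing receptor, had ratios of -5.89 and -6.89, and Bst2, which tethers virus particles, -3.61 and -3.93. Plac8 had ratios of -5.20 and -6.68, and Mctp2 -6.98 and -6.43. Ly6c2 was at least 79.4-fold lower after vehicle and had a ratio of -3.12 after RvD1. Thbs1, a matrix protein, had ratios of -2.69 and -3.78, and the protease gene Ctsl -3.43 and -2.79. The 6 plasmacytoid markers summed to 225 CPM in chemokine-high cells and 2089 in the others after vehicle, and to 194 and 3040 after RvD1.

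Gene lists were counted at 1.5-fold in both donor libraries, a threshold that 172 (11.5%) of the 1490 genes passed on the higher side and 164 (11%) on the lower. Of 8 maturation markers with enough UMIs, 7 were higher and none was lower, with medians of 2.20 and 0.78. Among them the amino acid oxidase Il4i1 had ratios of 2.73 and 1.23, and the NF-kB subunit Relb 1.61 and 0.70. In the RvD1 donor library Relb was 0.20 with the limit at 20 chemokine UMIs, and Ccr7 was 0.39 without the Siglech-bearing cells, both below 1.5-fold. Of 7 costimulatory and checkpoint genes, 5 were higher and none was lower, with medians of 0.94 and 1.10. The costimulatory receptor Cd40 had ratios of 1.37 and 2.95, Cd80 1.02 and 1.06, and Cd83 0.94 and 1.16. The inhibitory ligand Cd274 had ratios of 1.18 and -0.36, but with the limit at 5 chemokine UMIs the RvD1 donor value was 0.22. The adhesion molecule Icam1 had ratios of 0.85 and 2.47. Of 19 NF-kB targets, 10 were higher and 1 was lower, with medians of 0.65 and 0.92. Nfkb1 had ratios of 1.11 and 1.63, the inhibitor Tnfaip3 1.13 and 1.57, and the antioxidant enzyme Sod2 -0.59 and -0.76.

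Transcription factors divided evenly, with 4 of 10 higher and 4 lower. Zbtb46 had ratios of 1.35 and 1.94, the repressor Id2 1.59 and 1.46, and Rbpj, which acts downstream of Notch, 1.39 and 2.13. Zeb2 had ratios of -1.33 and -1.51 and Cebpb -1.58 and -1.75. Tcf4, a factor of plasmacytoid cells, had ratios of -1.86 and -2.29, and Irf8 -1.64 and -1.30. These last 2 rest on the Siglech-bearing cells: without them Tcf4 was 0.20 and 0.05, and Irf8 was 0.64 and 2.20.

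Among 11 genes of MHC class II presentation, 3 were higher and 2 lower. Cd74, the invariant chain, had ratios of 0.65 and 0.59, H2-Eb1 0.65 and 0.79, H2-DMb2 1.37 and 1.99, and the lysosomal protease Lgmn -0.90 and -1.09. The median of that list was -0.16 after vehicle and 0.42 after RvD1, so its sign differed between the libraries. Without the Siglech-bearing cells Cd74 was 0.39 and 0.32 and H2-Eb1 0.39 and 0.45, all below 1.5-fold. None of 8 MHC class I genes and none of 7 heat shock chaperones passed 1.5-fold in either direction. Among chemokine genes other than those of the rule, Cxcl16, a ligand for memory T cells, had ratios of 0.94 and 1.37, and Ccl6 -1.64 and -1.33. Ccl5 had ratios of 3.52 and -1.94, with 30.8% and 42.3% of its UMIs in 1 cell of each library. Ptger4, a receptor for prostaglandin E2, had ratios of 1.33 and 2.48. Il12b, a subunit of interleukin 12, stood at 349 against 1.25 CPM after vehicle and was at least 100.5-fold higher after RvD1, with 31.8% and 53.3% of its UMIs in 1 cell. With the limit at 20 chemokine UMIs, the vehicle donor ratios were 2.69 for Il12b and 0.43 for Ccl5.

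By summed level, neutrophil transcripts were higher in chemokine-high cells too. S100a8 stood at 185 against 25.1 CPM after vehicle and 128 against 38.8 after RvD1, and S100a9 at 196 against 22.6 and 225 against 58.3 CPM. By cells the libraries went different ways: at least 2 UMIs of S100a8 and S100a9 were found in 20 of 60 chemokine-high cells and 7 of 45 others after vehicle, but in 11 of 41 and 11 of 33 after RvD1. The same was found in 11.8% and 25.6% of donor B cells. Their part in the other ratios was not tested.

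The limit on macrophage genes left out a further group of like cells, because it counts Plet1. A total of 29 cells of the vehicle donor library and 20 of the RvD1 donor library met every other condition and failed only through Plet1, a surface protein also known on intestinal dendritic cells. Of these, 28 and 20 were chemokine-high. They carried 0 and 1 UMI of the alveolar macrophage gene Marco. Of Chil3, another marker of alveolar macrophages, they carried 7 and 89 UMIs, or 11.3 and 234 CPM. Ccl17 stood at 6808 and 9058 CPM in them, Ccl22 at 1843 and 2224, Ccr7 at 557 and 308, Zbtb46 at 219 and 139, and Flt3 at 179 and 176 CPM. Counted in, they would bring the members to 134 (2.37% of kept cells) and 94 (1.85%).

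For RvD1 against vehicle, donor members were compared over 3811 genes with at least 100 UMIs in the 2 libraries together. In the RvD1 donor library, 39 genes (1.02%) were at least 2-fold higher and 97 (2.55%) were at least 2-fold lower, with a median over all genes of -0.06 on the log2 scale. Treatment cannot be told apart from the library or from the version of Cell Ranger, which was 6.1.1 in the vehicle files and 7.0.1 in the RvD1 files. Ratios below are log2 of RvD1 over vehicle with exact 95% counting intervals.

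Heat shock chaperones, which refold damaged proteins, were the list with the lowest median among the lists of more than 5 measured genes. Hspa1a stood at 372 CPM in vehicle donor members and 34.2 in RvD1 donor members, and at 129 and 0 CPM in the vehicle and RvD1 recipient members. Its donor ratio was -3.44 (-3.96 to -2.97), with a UMI in 42.9% of vehicle and 14.9% of RvD1 donor members. Within the vehicle donor library it was 540 CPM in chemokine-high cells and 119 in the others, and within the RvD1 donor library 43.1 and 21.6. Hspa1b, its near-identical copy, had a ratio of -3.0; how reads were divided between the 2 is uncertain. The cochaperones Hsph1 and Dnajb1 had ratios of -3.06 and -1.59. Hsp90aa1 stood at 597 against 281 CPM, a ratio of -1.09 (-1.27 to -0.90), and the constitutive Hspa8 at 1416 against 914 CPM, a ratio of -0.63. Of 14 chaperones measured, 10 were at least 1.5-fold lower and none higher, with a median of -0.77, where 11.8% of all 3811 genes were lower and 5.85% higher by that measure. Hspa1a was also lower after RvD1 in cDC1, at 310 against 18.3 CPM, and in C1q-positive macrophages, at 324 against 77.5 CPM. In classical monocytes it stood at 39.7 and 30.6 CPM.

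**Figure D4:**
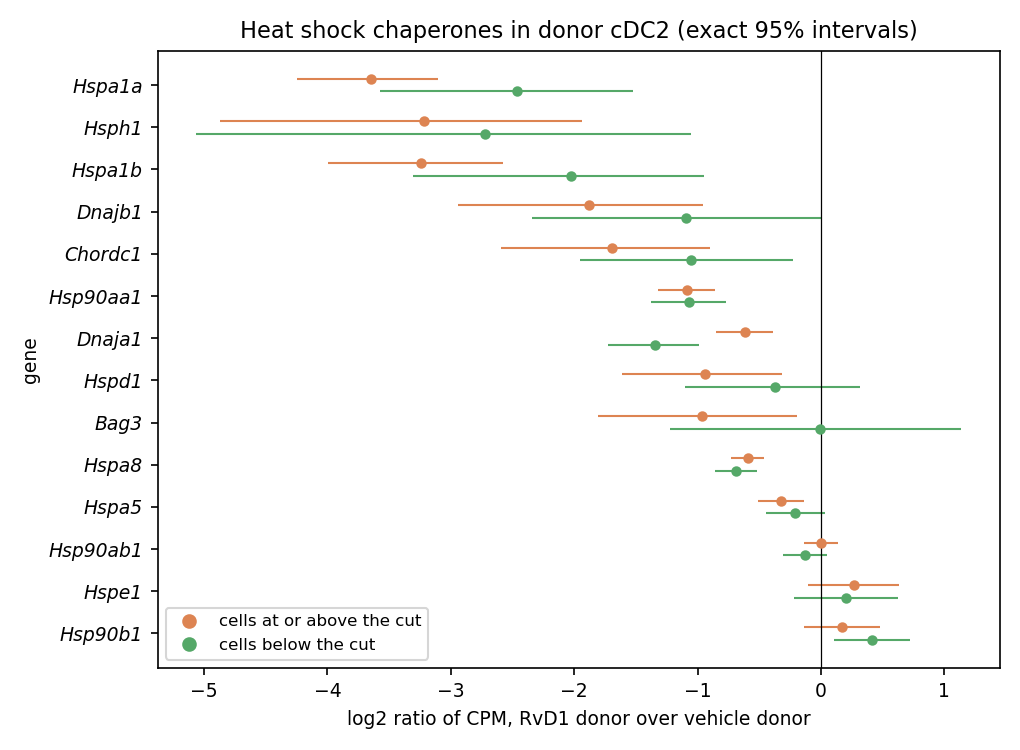
Log2 ratio of CPM, RvD1 over vehicle donor library, for 14 heat shock chaperones in chemokine-high cells and in the other members, with exact binomial 95% intervals. The inducible chaperones (Hspa1a, Hspa1b, Hsph1) lie farthest below 0, with Hspa1a at -3.64 and -2.46.

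The other lower genes had various roles. Gclc, the catalytic subunit of the enzyme that starts glutathione synthesis, stood at 262 against 79.1 CPM, a ratio of -1.73 (-2.07 to -1.40), and at -1.58 in chemokine-high cells and -2.39 in the others. Aldh1a2, which makes retinoic acid, stood at 66.0 against 8.09 CPM, a ratio of -3.03 (-4.19 to -2.06). Pde4d, which degrades cyclic AMP, stood at 473 against 169 CPM, a ratio of -1.48. It lay at -1.90 in chemokine-high cells and at 0.14 in the others. Flrt3, an adhesion protein, stood at 298 against 79.1 CPM (ratio -1.91), the transcription factor Ehf at 94.0 against 16.2 CPM (ratio -2.54), and the zinc transporter Slc39a12 at 55.5 against 5.39 CPM (ratio -3.36). With Plet1 not counted in the rule, the ratio of Flrt3 was -1.29.

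More interferon-stimulated genes were lower than higher after RvD1. Cxcl10, a chemokine for effector T cells, had 158 UMIs in vehicle donor members and 1 in RvD1 donor members, or 79.0 and 0.90 CPM. Its ratio was -6.46 with a wide interval (-11.77 to -3.96), 11.4% of vehicle members carried it, and 1 cell held 19.5% of its UMIs. Cxcl9 stood at 107 against 10.8 CPM, a ratio of -3.31, with 27.0% of its UMIs in 1 cell, and of -2.12 with Plet1 not counted in the rule. Of 9 interferon-stimulated genes measured, 4 were at least 1.5-fold lower and 1, Bst2, was higher, beside 11.8% and 5.85% of all genes. The median of these 9 genes was -0.48. Bst2 stood at 219 against 439 CPM, a ratio of 1.00 (0.81 to 1.19). That ratio was 0.23 without the Siglech-bearing cells, which were 8 of 105 and 8 of 74 donor members.

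**Figure D5:**
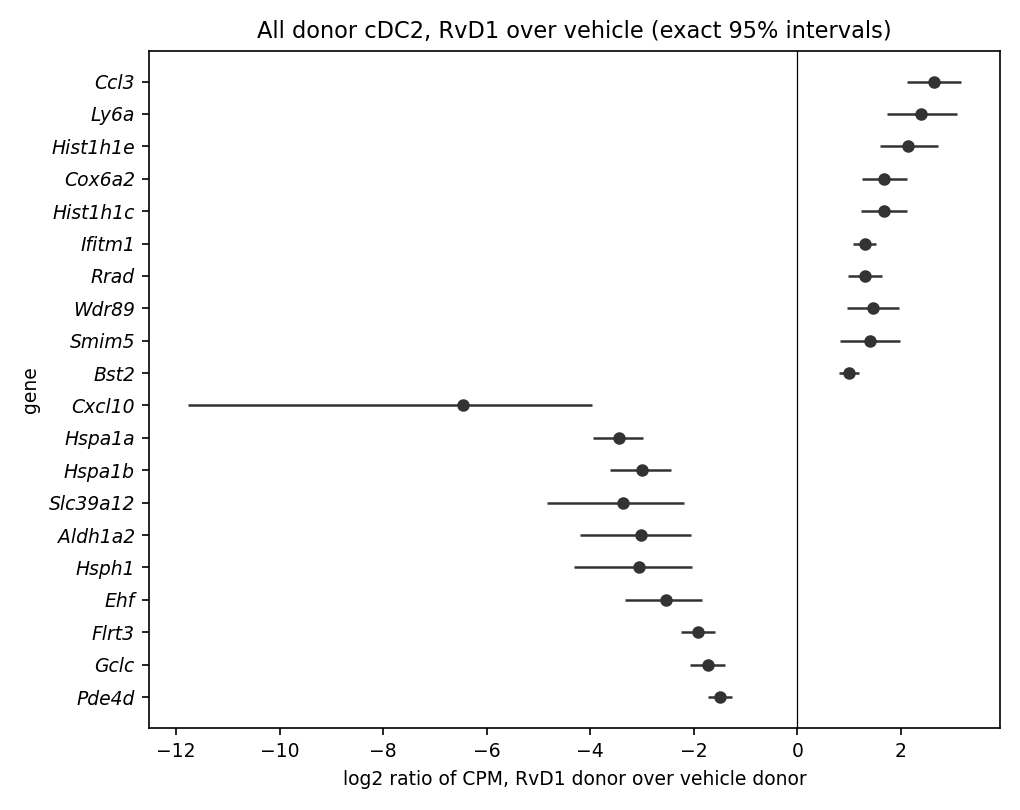
Log2 ratio of CPM, RvD1 over vehicle donor members, for the 10 higher and 10 lower named genes, with exact binomial 95% intervals. Cxcl10 has the widest interval (-11.77 to -3.96), and the higher genes lie between 1.00 and 2.63.

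On the higher side, Ccl3, a chemokine for inflammatory cells, stood at 21.0 against 130 CPM in vehicle and RvD1 donor members, a ratio of 2.63 (2.13 to 3.17). Its relative Ccl4 had a ratio of 1.97 with 23.6% of UMIs in 1 cell. Ccl2, a monocyte chemokine, had 5.23 with 30.9% in 1 cell. The linker histone genes Hist1h1e and Hist1h1c had ratios of 2.15 (1.60 to 2.72) and 1.67, and the latter 0.93 with Plet1 not counted. Ly6a, a surface protein that interferon can induce, stood at 13 against 68.3 CPM (ratio 2.39), and Ifitm1, which blocks virus entry, at 147 against 364 CPM (ratio 1.30). Cox6a2, a respiratory chain subunit that is also in the plasmacytoid list, had a ratio of 1.68, and of 0.87 without members that bear cDC1 or maturation markers. The small GTPase Rrad had 1.30, Wdr89 1.46 and Smim5 1.40. Of the 6 plasmacytoid markers, 3 were at least 1.5-fold higher and none lower, beside 5.85% and 11.8% of all genes. Their median was 0.70, and their summed level was 968 CPM after vehicle and 1380 after RvD1. Without the Siglech-bearing cells only 2 of these markers had enough UMIs, with a median of -0.15.

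The rule genes lay nearer to 0 over all donor members. Ccl17 had a ratio of -0.02 (-0.07 to 0.03), with 4770 and 4702 CPM, while Ccl22 had -0.55 (-0.63 to -0.46), with 2030 and 1388 CPM. Without members that bear cDC1 or maturation markers, the ratio of Ccl22 was 0.57. Mgl2 had 0.20, Cd209a -0.26 and H2-Aa 0.10. By side of the split, Cd209a had -1.17 in chemokine-high cells and 0.31 in the others, and Mgl2 0.14 and 1.16. Cells below the limit could enter the rule only through these lectins or a few chemokine UMIs. Part of the difference between the sides may therefore come from the rule, which was not tested. Among 13 genes of MHC class II presentation, 2 were at least 1.5-fold higher and none lower, with a median of 0.13. These were the 2 chains of the peptide exchanger, H2-DMa (319 against 522 CPM, ratio 0.71) and H2-DMb1 (258 against 482 CPM, ratio 0.90). In chemokine-high cells they had 1.16 and 1.44, and in the others 0.10 and 0.35, below 1.5-fold. Among 13 MHC class I genes none was higher and 2 were lower, the transporter Tap1 at -0.85 and the regulator Nlrc5 at -0.85. By the same measure, 5.85% of all 3811 genes were higher and 11.8% were lower.

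Costimulatory genes showed no common direction. Of 10 measured, 1 was at least 1.5-fold higher and 2 were lower, beside 5.85% and 11.8% of all genes. Cd40 stood at 289 against 170 CPM, a ratio of -0.77 (-1.01 to -0.53), and at -0.52 in chemokine-high cells and -2.10 in the others. The checkpoint ligand Pdcd1lg2 had a ratio of -0.83, and the T cell ligand Tnfsf9 0.94. Tnfsf9 passed 1.5-fold neither without members that bear cDC1 or maturation markers (0.18) nor in members below the limit (0.51). Ccr7 had a ratio of -0.47, made of -0.77 in chemokine-high cells and 1.03 in the others. Of 12 maturation markers, none was higher and 2 were lower, with a median of -0.04.

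Of 15 genes of the response to interleukin 4, GM-CSF and TSLP, 5 were at least 1.5-fold lower and 1 was higher after RvD1, beside 11.8% and 5.85% of all genes. Their median was -0.37, and with cells thinned to 5000 UMIs it was -0.06 over 6 genes, the same as over all genes. Csf2rb, the shared signalling chain of the GM-CSF receptor, stood at 650 against 335 CPM, a ratio of -0.95 (-1.12 to -0.79), and near that value on both sides of the split (-0.92 and -1.01). The feedback inhibitors Cish and Socs2 had ratios of -0.87 and -0.90, and Il13ra1 had 0.64. Among 19 immediate early genes, 4 were lower and none higher, with Nr4a3 at -0.69 and Klf6 at -0.66. Among 17 antioxidant genes, Gclc was lower and 2 were higher, with Gpx1 at 291 against 513 CPM, a ratio of 0.82. Among 14 C-type lectins, 4 were higher and 3 lower. Clec4b1 had 1.00 and Clec4d -1.25. Cd207 (langerin) had 2.10, with 48.8% of its UMIs in 1 cell, and 0.43 with Plet1 not counted.

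Among receptors of resolvins, Fpr2 was scarcely detected in members, whereas Gpr18 was found in the members of all 4 libraries. Fpr2, a receptor of RvD1, had 2 UMIs in vehicle donor members and 0 in the other libraries' members, against 84.3 and 63.7 CPM in donor nonclassical monocytes. Gpr18, a receptor reported for a related resolvin, stood at 19, 18, 27.7 and 37.4 CPM in members of the 4 libraries. Cmklr1, the receptor of another resolvin family, stood at 7.0 and 4.49 CPM in donor members. Of 13 lipid mediator receptors, 2 had enough UMIs for a ratio: Ltb4r1, a leukotriene B4 receptor, at 0.78 and Ptger4 at -0.28.

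The recipient members were too few for ratios and lacked the chemokine-high cells. Cd209a was detected in 5 of 7 vehicle recipient and 22 of 23 RvD1 recipient members. Ccr2, which draws monocytes and their kin from blood into tissue, stood at 166 and 408 CPM in them, against 69.5 and 116 CPM in donor members. Ly6c2 reached 2 UMIs in 4 of 7 and 12 of 23, and Siglech in 2 of 7 and 3 of 23. Ccr7 stood at 342 and 59.2 CPM, and Ly75 at 64.7 and 24.9 CPM. In these respects recipient members lay nearer to donor members below the limit than to chemokine-high cells. Ccr2 stood at 144 and 233 CPM in the former and at 19.96 and 32.4 CPM in the latter. All recipient members were themselves below the limit, and most entered the rule through the lectins. Their likeness in Cd209a is therefore part of the selection. Over all kept cells of the vehicle recipient library there were 232 Ccl17 UMIs, 2 of them in members, and in the RvD1 recipient library there were 16.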

How the data were processed

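Each library held the deposited 10x Genomics 3' (v3) matrix of 1 group, whose values are raw counts, that is whole-number UMIs per gene and cell, per the file headers; no test applies to 1 library per group. Cell Ranger was version 7.0.1 for the RvD1 libraries and 6.1.1 for the vehicle libraries per the file headers, and mm10 and Seurat 4.0.0 are named in the submitters' processing notes. Whether introns were counted, and whether donor and recipient libraries came from the same grafts, was not given in the sources used here. Barcodes under 200 genes or above 10% mitochondrial UMIs were removed: 85 and 103 in the vehicle and RvD1 donor libraries, 69 and 213 in the recipient libraries. Scrublet (scanpy 1.11.5) called 1.34 to 3.65% of cells doublets; calls were left in, since none was a member.

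UMIs were summed over cells and given as CPM of those cells' total, with no pseudocount; a side with no UMI was set to 3 UMIs and is given as a bound. Ratios were described for genes with at least 100 UMIs. The text names the 10 higher and 10 lower genes whose interval bound lies farthest from 0, among genes with no more than 20% of UMIs in 1 cell and leaving out mitochondrial, ribosomal, haemoglobin, sex-linked, antigen receptor and unnamed genes; up to 4 members per list with the largest ratio; and 10 genes chosen by name. A few genes of this rule are not reported here. Of the listed genes, Clec7a, Mx1 and Mx2 had no row. Markers of interstitial macrophages, alveolar macrophages, neutrophils, B cells and epithelial or endothelial cells summed to 231, 77.0, 467, 47.5 and 63.5 CPM in vehicle donor members and to 233, 89.9, 538, 56.6 and 79.1 CPM in RvD1 donor members; those of classical monocytes summed to 1005 and 1052 CPM, and those of cDC1 to 575 and 684 CPM. The members and lists were chosen with earlier results of these data known. Positions are from GENCODE on GRCm38. Scripts (Python 3.11.15, numpy 2.4.6, scipy 1.17.1, pandas 2.3.3) were tested on simulated data.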

Additional observations from a re-analysis of the deposited data

Results flagged for a closer look

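The effect of the split or of RvD1 went opposite ways, by at least 1.5-fold on each side, in 8 cases among the named genes and list members with no more than 20% of UMIs in 1 cell. The difference itself was not tested in any of them, and all values are log2 ratios of CPM from 1 library per group. Wdfy4, which cDC1 need to cross-present antigen, was lower in chemokine-high than in other members of the vehicle donor library (-0.70). It was higher in those of the RvD1 donor library (2.27). With Plet1 not counted in the rule, the vehicle donor value was -0.21, below 1.5-fold. Seen as RvD1 over vehicle, Wdfy4 was 1.21 in chemokine-high cells and -1.76 in the other donor members.

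For 6 further genes, RvD1 over vehicle differed in sign between chemokine-high cells and the other donor members. The maturation genes Ccr7 (-0.77 and 1.03), Socs2 (-1.22 and 2.24) and Cacnb3 (-0.92 and 4.59) were lower in chemokine-high cells and higher in the others. The chemokine Ccl5 had -1.77 and 3.69. Over both donor libraries together, 1 cell held 19.7% of its UMIs, and within each library 1 cell held a larger share, as given above. The peptidase Dpp4 (0.98 and -1.33) and the NF-kB target Tnfaip2 (0.74 and -0.64) went the other way.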

How the results depend on the processing

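No paired analysis was possible because each group is 1 library with no replicate number, and for the same reason no replicate could be left out. Shares of cDC2 moved when every cell was thinned to 2000 UMIs before the rule, to 0.845% and 0.959% of vehicle and RvD1 donor cells and 0% and 0.0271% of vehicle and RvD1 recipient cells, and with Plet1 not counted, to 2.37% and 1.85% of vehicle and RvD1 donor cells. A sum of at least 5 UMIs of the 4 genes gave 68.2% chemokine-high cells in the vehicle donor library. After RvD1, 39 genes passed 2-fold upwards and 97 downwards; the numbers were 111 and 212 with at least 50 UMIs, 13 and 41 with at least 200, and 12 and 31 with cells thinned to 5000 UMIs. The counts for chemokine-high cells, 79 and 82, were 136 and 178 with at least 50 UMIs, 43 and 30 with at least 200, 26 and 15 after thinning, and 29 and 34 without cells bearing cDC1 or maturation markers. These settings also alter how many genes are described.

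Leaving out Siglech-bearing cells, and not counting Plet1, were chosen after seeing the data; they gave 48 lower genes and 122 higher genes for that split, in that order. Signs reversed for Ccl22 after RvD1 (0.57) and Cd209a in chemokine-high cells after vehicle (0.63) without cells bearing cDC1 or maturation markers. They reversed after RvD1 for Cd209a (0.31), Ccr7 (1.03) and Pde4d (0.14) in members below the limit only, and for Mgl2 (-0.0101) with Plet1 not counted. Without Siglech-bearing cells they reversed for Tcf4 (0.20 and 0.0485) and Irf8 (0.64 and 2.20) between the sides of the split, vehicle donor first. The causes were not tested. Ratios of single genes were compared under settings that can alter them. Of these, 872 stayed within the counting interval of the reported ratio, 213 left it and the 10 above reversed. Some that left it also changed sign without being counted as reversed, such as Ccl17 after RvD1 and Cd274 in the RvD1 donor split. The ratio for Cxcl10, RvD1 over vehicle, donor cDC2, was -4.20 with Plet1 not counted. The median of the heat shock chaperones lay between -0.45 and -0.97 under every setting tried.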

Other observations

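Cells that carry Ccr4, the receptor of Ccl17 and Ccl22, were counted in the same libraries. Among cells with Cd3e and Cd4 UMIs, 23.3% in the vehicle donor library and 16.5% in the RvD1 donor library had a Ccr4 UMI, against 5.88% and 6.05% in the vehicle and RvD1 recipient libraries. Among cells with a UMI of Foxp3, the transcription factor of regulatory T cells, the shares were 37.5%, 37.8%, 17.2% and 9.76% in the same order. Cells with Gata3 and Il1rl1 but no Cd3e had Ccr4 in 13.5% and 21.6% of the donor cells. Cells with Cd3e and Cd8 UMIs had Ccr4 in 3.12% and 2.87% of the vehicle and RvD1 donor cells, and B cells in 0.219% and 0.361%, which serves as the background.

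Cells outside the rule also reached at least 10 UMIs of Ccl17 and Ccl22: 90 of 150 such cells in the vehicle donor library and 47 of 88 in the RvD1 donor library. In the vehicle recipient library 2 cells did and in the RvD1 recipient library none.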
